A study of Canis lupus familiaris with 32 samples.

Results

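The genes described here are 66 chromatin modifiers and remodelers, chosen by symbol alone: the families HDAC, SMARC, ARID, CHD, KDM, KMT, SETD, ASH, KAT, BRD, NCOA, SUPT and HMG (without HMGB1), together with CREBBP. They were 66 of the 5246 genes that carry a symbol on the array and were measured by 93 probes; 48 genes had 1 probe, 11 had 2, 5 had 3 and 2 had 4, and the probes of a gene were averaged. Expression was measured on two-color cDNA arrays in 32 primary canine osteosarcomas taken at surgery before any treatment, 16 from dogs that lived less than 6 months (short survivors, SS) and 16 from dogs that lived at least that long (long survivors, LS). Each tumor came from its own dog and was hybridized once. Its partner on the array was a pool of RNA from these same 32 tumors, and a value of 0 on the log2 scale means the level of that pool. The tumor carried the dye Cy5 on 8 SS and 8 LS arrays and the dye Cy3 on the other 8 SS and 8 LS arrays. The groups were defined by outcome and were not equal in other respects, such as chemotherapy after surgery, the tumors vary in site and histological type, and the values are those of bulk tissue, in which fewer cells of a type and less RNA per cell cannot be told apart. Ratios to a pool give no absolute level, so that no gene is set against another by level and the labeled tissue cannot be checked against absent markers: 4 of 12 osteoblast markers were measured, and their mean ratio ran from -1.98 to 1.09 in SS and from -3.63 to 1.54 in LS.

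Chromatin modifiers act on the nucleosome, the spool of histones around which DNA is wound. Acetyltransferases and methyltransferases place marks on histone tails, deacetylases and demethylases take them off, bromodomain proteins bind acetylated tails, and remodelers of the SWI/SNF, ISWI and CHD families use ATP to slide or evict nucleosomes. High mobility group proteins bend DNA or bind nucleosomes without enzymatic activity, and the SUPT factors carry RNA polymerase through chromatin or belong to the coactivator complex SAGA. Many of these genes are known in cancer, among them SMARCB1, ARID1A, SETD2 and CREBBP as tumor suppressors in human tumors.

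The first comparison asked whether expression of these genes differed between SS and LS tumors. No member passed the adjusted threshold of 0.10 (limma, Benjamini-Hochberg adjustment over all 5246 genes), and no gene of the whole table did, a background of 0%. The smallest adjusted p by limma was 0.296 among the members and 0.13 among all genes. The study, by Significance Analysis of Microarrays at the same false discovery rate, did report transcripts higher in SS. That test was not run here. At an unadjusted p under 0.05 the 3 members HMGB2, HMGN3 and SMARCC2 were higher in SS (4.55% of the members, against 5.72% of all genes) and the 3 members HDAC11, SUPT6H and CHD1L were lower (4.55%, against 2.73%). These shares lie near those of all genes, and the count of higher members was 1 without tumor 25 and 5 without tumor 30. Of the 66 members 39 had the higher mean in SS, or 59.1%, against 56.6% of all genes, and the median difference was 0.05 on the log2 scale over the members and 0.02 over all genes.

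**Figure D1:**
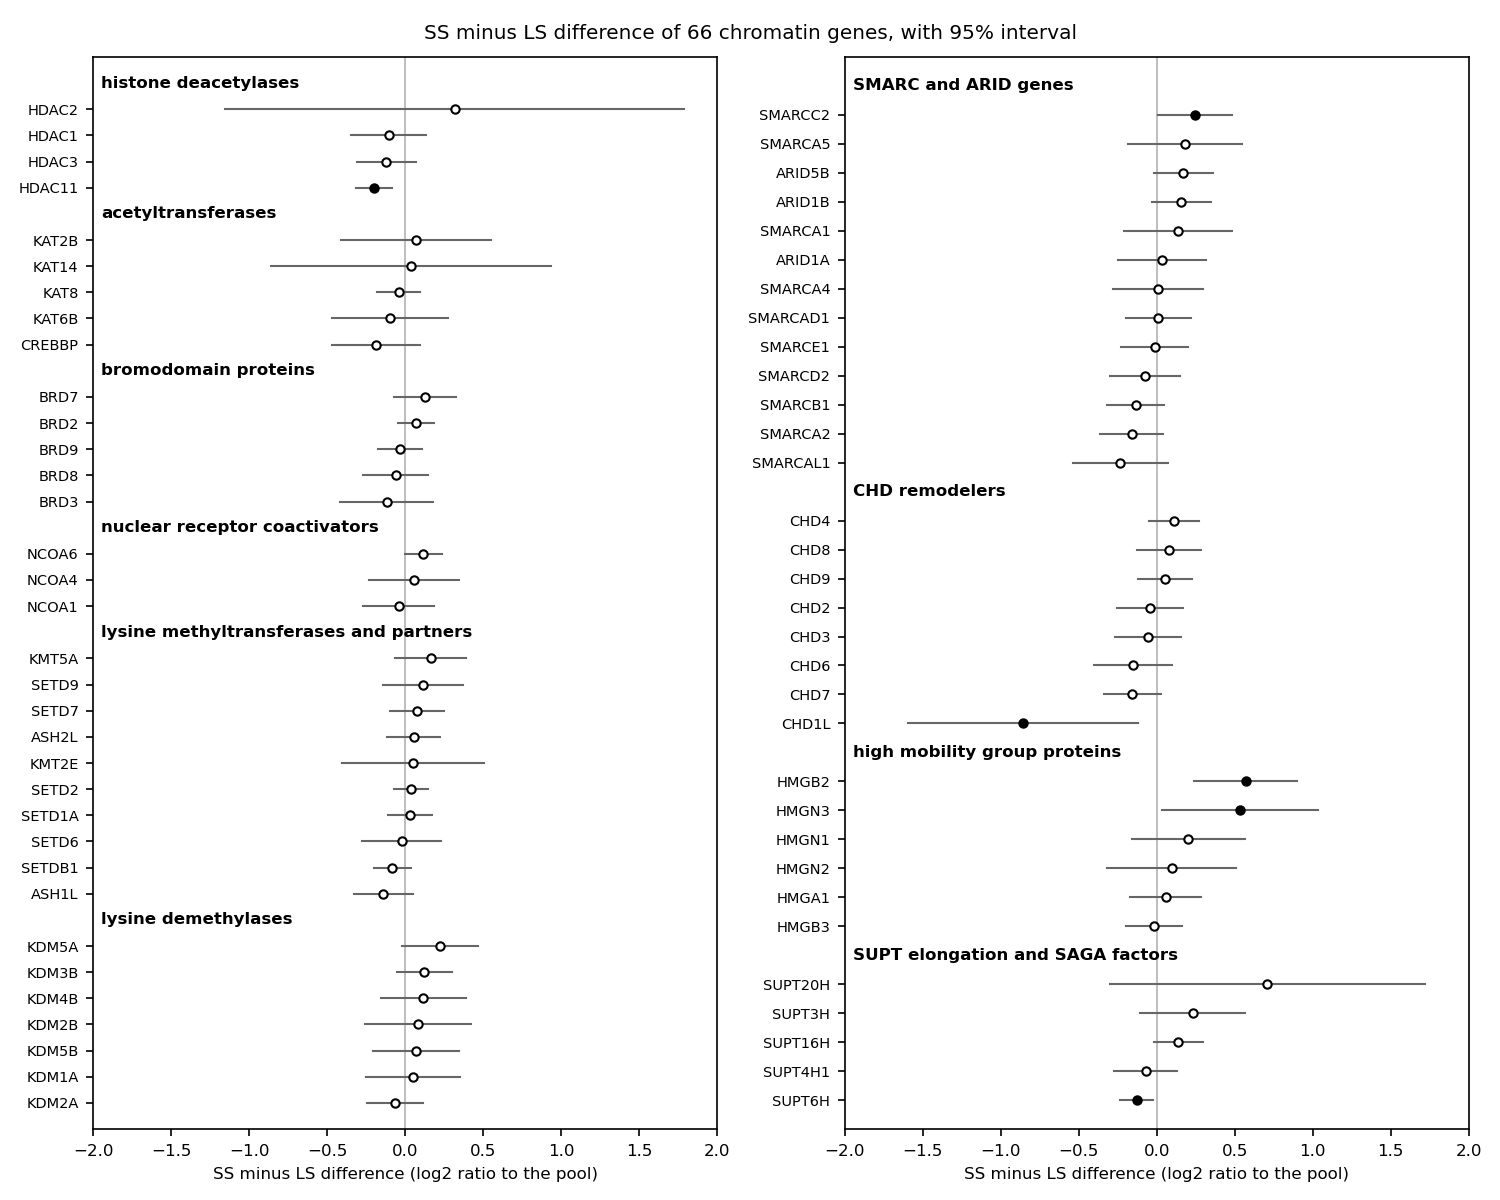
SS minus LS difference of each of the 66 members on the log2 scale (points) with its 95% confidence interval (lines), grouped by role and ordered by size; filled points have an unadjusted p under 0.05. The intervals are those of the fit without the dye. Most points lie within 0.25 of 0, and the widest intervals belong to HDAC2, SUPT20H, KAT14 and CHD1L.

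The intervals come from the fit without the dye, so that a dye difference of a gene adds to their width. The SE of KAT6B was 0.18 there and 0.07 with the dye as a block. That of HMGB2 was 0.16 in both. For 53 of the 66 members (80.3%, against 75.9% of all genes) the 95% interval of the difference lay within 1.4-fold either way, and 62 of the 66 differences (93.9%, against 97.7% of all genes) were themselves under 1.4-fold. The exceptions were HMGB2, HMGN3, CHD1L and SUPT20H. In every member the range of SS values overlapped that of LS values.

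The high mobility group proteins held the member with the largest positive difference among those with an unadjusted p under 0.05. HMGB2, a DNA-bending protein abundant in dividing cells, had a lowest value of -0.75, a median of 0.14 and a highest of 1.37 in SS, against -0.84, -0.50 and 0.43 in LS. The ranges overlapped, but 13 of 16 SS tumors exceeded the mean of LS. The difference was 0.57 ± 0.16 (SE; 95% interval 0.24 to 0.90, 1.48-fold; unadjusted p = 0.00131, adjusted p = 0.296 by limma).

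Both probes of HMGB2 gave a difference of 0.57, although after centering within dye and survival group they correlated at only r = 0.19 over the 32 tumors. Among Cy5 tumors the difference was 0.35 and among Cy3 tumors 0.79, where it passed the threshold (adjusted p = 0.0579 by limma, 8 SS against 8 LS tumors). The difference between these values, -0.43 ± 0.32 (SE), did not pass (adjusted p = 0.566 by limma), so an inequality of the orientations was not shown. Leaving out any single tumor kept the difference of HMGB2 between 0.49 and 0.63.

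Genes of proliferating cells moved with HMGB2 to a degree. Of 30 such markers 6 were measured, PCNA, MCM7, CCNB2, RRM1, FOXM1 and BIRC5, and all 6 had the higher mean in SS, none of them at an unadjusted p under 0.05, with a median difference of 0.29. Their mean ratio ran from -0.75 to 0.71 in SS (median 0.10) and from -0.89 to 0.69 in LS (median -0.17). After each gene was centered within its dye and survival group, HMGB2 correlated with that mean at r = 0.40 and rho = 0.43 over 32 tumors, and at r = 0.31 without the 2 tumors farthest from the median. Its r was 0.56 with PCNA, the sliding clamp of DNA replication, and 0.11 with FOXM1, a transcription factor of mitosis. The part of proliferating cells in the HMGB2 difference was not tested.

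HMGN3, a nucleosome-binding protein, ran from -0.84 through a median of -0.03 to 1.60 in SS, and from -1.66 through -0.49 to 1.38 in LS. The ranges overlapped over most of their length, and 13 of 16 SS tumors exceeded the mean of LS. Its difference was 0.53 ± 0.24 (SE; unadjusted p = 0.0362, adjusted p = 0.543 by limma), with 0.48 among Cy5 and 0.59 among Cy3 tumors.

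The other members of this group differed less. HMGN1 had a difference of 0.20, HMGN2 of 0.09, HMGA1, an AT-hook protein, of 0.06 and HMGB3 of -0.02. Thus 5 of 6 high mobility group genes had the higher mean in SS and their median difference was 0.15. Cross-hybridization between the related sequences of this family was not tested.

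**Figure D2:**
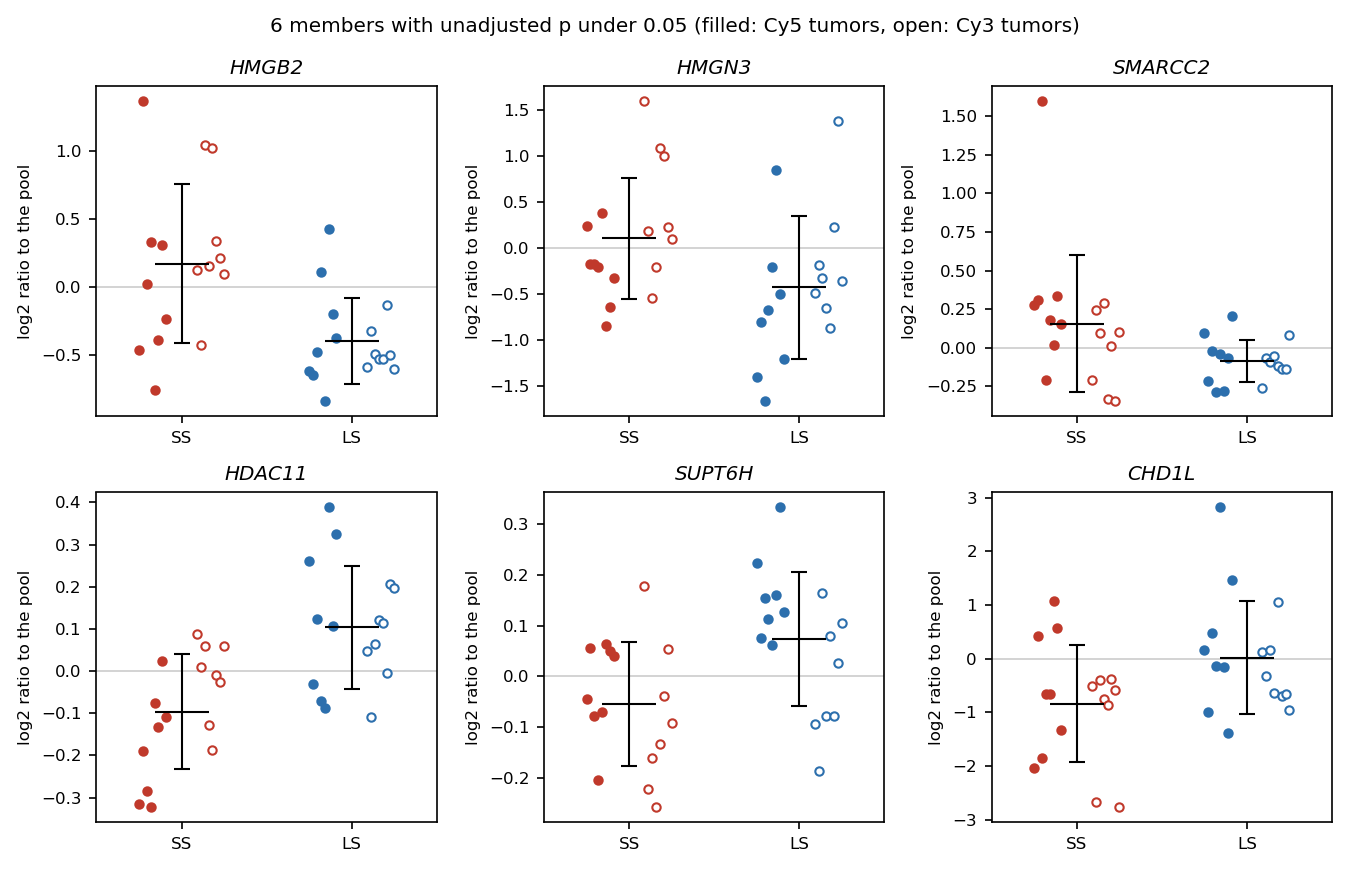
Log2 ratio to the pool of each tumor for the 6 members with an unadjusted p under 0.05, SS in red and LS in blue, filled points for Cy5 tumors and open points for Cy3 tumors, with the mean and SD of each group (n = 16). SS lie higher for HMGB2, HMGN3 and SMARCC2 and lower for HDAC11, SUPT6H and CHD1L, with overlap in every panel, and the SMARCC2 panel has 1 SS tumor at 1.60.

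Among the histone deacetylases, HDAC11 had the smallest unadjusted p of all members. HDAC11, the only class IV deacetylase, ran from -0.32 through a median of -0.09 to 0.09 in SS, and from -0.11 through 0.11 to 0.39 in LS. All 16 SS tumors lay below the LS mean. The SS range nevertheless reached 0.09, close to the LS median of 0.11, so that many LS tumors lay within it. The difference was small, -0.20 ± 0.06 (SE; 95% interval -0.31 to -0.08, 0.871-fold), with an unadjusted p of 0.00122 and an adjusted p of 0.296 by limma. With the dye as a block its adjusted p was 0.109, the smallest of the members in that fit. The HDAC11 difference was -0.30 among Cy5 tumors and -0.10 among Cy3 tumors, an inequality that did not pass (adjusted p = 0.34 by limma).

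The class I enzymes gave no such ordering. HDAC3, the deacetylase of the NCOR complexes, differed by -0.12 over all tumors, but by -0.37 among Cy5 tumors (adjusted p = 0.0405 by limma) and by 0.13 among Cy3 tumors. The interaction of survival group and dye had an adjusted p of 0.115 for HDAC3 (limma), so that the inequality itself did not pass. HDAC1 differed by -0.11, and HDAC2 by 0.32 (SE 0.72, and 0.54 with the dye as a block). The HDAC2 interval of -1.15 to 1.79, from the fit without the dye, allows a large difference either way. The HDAC2 value was 0.014 without tumor 8 and 0.70 without tumor 20.

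The acetyltransferases held no member with an unadjusted p under 0.05, but most of their intervals were wide. CREBBP, a coactivator that acetylates histones, ran from -1.67 through -0.09 to 0.67 in SS, and from -0.49 through 0.05 to 0.44 in LS. The lowest SS value came from tumor 6, and without it the difference was -0.09 in place of -0.18. KAT8, which acetylates histone H4, differed by -0.04, KAT6B by -0.10, KAT2B by 0.07 and KAT14, a subunit of the ATAC complex, by 0.04.

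No bromodomain protein or nuclear receptor coactivator reached an unadjusted p of 0.05. BRD2, a reader of acetylated histones, differed by 0.07 (95% interval -0.05 to 0.19), its relative BRD3 by -0.12 (-0.41 to 0.18, and -0.05 without tumor 12) and BRD7, a subunit of a SWI/SNF complex, by 0.13. NCOA6, a coactivator found with histone methyltransferases, had 14 of 16 SS tumors above the mean of LS and a difference of 0.12 ± 0.06 (SE; unadjusted p = 0.0542). Its 2 probes gave 0.11 and 0.13 but correlated at -0.43 over tumors. The NCOA6 difference was -0.01 among Cy5 tumors and 0.25 among Cy3 tumors, where it passed the threshold (adjusted p = 0.071 by limma). In the same order its probes gave -0.17 and 0.14 among Cy5 tumors, and 0.38 and 0.11 among Cy3 tumors. The inequality thus came from 1 of the 2 probes. NCOA4, better known as the ferritin cargo receptor of autophagy, differed by 0.06 and NCOA1, a steroid receptor coactivator, by -0.04.

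No histone methyltransferase or partner reached an unadjusted p of 0.05. ASH1L, a methyltransferase of histone H3, ran from -0.67 through -0.05 to 0.34 in SS and from -0.34 through 0.12 to 0.45 in LS. The bulk of both groups overlapped, and the difference was -0.14 (unadjusted p = 0.143, and 0.0214 with the dye as a block; adjusted p = 0.274 by limma in that block fit). KMT5A, which methylates histone H4, differed by 0.16, and SETDB1, a methyltransferase of silenced chromatin, by -0.08. SETD2, the methyltransferase of transcribed gene bodies, differed by 0.04 with an interval of -0.07 to 0.15.

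Of the 7 lysine demethylases, 6 had the higher mean in SS and none an unadjusted p under 0.05. KDM5A, which removes methyl groups from histone H3 at promoters, ran from -0.65 through 0.11 to 1.30 in SS, and from -0.44 through -0.04 to 0.25 in LS. The highest SS value, from tumor 10, stood apart from the next at 0.56. The difference was 0.22 (unadjusted p = 0.0724), and 0.15 without tumor 10. KDM3B differed by 0.12 and KDM4B by 0.12, or 0.05 without tumor 1. Both are demethylases linked to the removal of silencing marks.

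Among the 13 SMARC and ARID genes, which are subunits of SWI/SNF and ISWI complexes or relatives of them, SMARCC2, a core scaffold subunit of SWI/SNF, was the one with an unadjusted p under 0.05. It ran from -0.34 through 0.13 to 1.60 in SS and from -0.28 through -0.08 to 0.21 in LS. Tumor 3 held the highest SS value and the next was 0.34. With it, 6 of 16 SS tumors lay above the highest LS tumor. The difference of 0.24 ± 0.12 (SE, unadjusted p = 0.0426, adjusted p = 0.563 by limma) was 0.15 without tumor 3. It was 0.41 among Cy5 tumors and 0.08 among Cy3 tumors, an inequality that did not pass (adjusted p = 0.505 by limma).

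The other subunits of SWI/SNF did not share a direction. ARID1B, a DNA-binding subunit, differed by 0.16 and its alternative ARID1A by 0.03. SMARCB1, a core subunit, differed by -0.14, and of the alternative ATPases SMARCA2 differed by -0.16 and SMARCA4 by 0.01. Outside these complexes, ARID5B, which guides a histone demethylase to DNA, differed by 0.17 (unadjusted p = 0.0771). SMARCAL1, an annealing helicase of stalled replication forks, differed by -0.23 over all tumors and by -0.10 without tumor 2, whose ratio was -2.11.

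CHD1L had the largest difference of the members with an unadjusted p under 0.05. CHD1L, a remodeler activated by poly(ADP-ribose) at DNA damage, ran from -2.77 through -0.66 to 1.08 in SS, and from -1.38 through -0.14 to 2.81 in LS. The ranges overlapped over most of their length, and 13 of 16 SS tumors lay below the LS mean. The difference was -0.86 ± 0.36 (SE; 95% interval -1.60 to -0.12, 0.552-fold), with an unadjusted p of 0.0242 and an adjusted p of 0.486 by limma. It was -0.84 among Cy5 tumors and -0.87 among Cy3 tumors, and leaving out single tumors moved it between -0.99 and -0.67.

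The other CHD genes were closer to 0. CHD7, a remodeler of developmental enhancers, differed by -0.16, and by -0.09 without tumor 4, whose ratio was -1.14. CHD4, the ATPase of the NuRD complex, differed by 0.11.

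Among the SUPT factors, SUPT6H, a histone chaperone that travels with RNA polymerase, ran from -0.26 through -0.06 to 0.18 in SS and from -0.19 through 0.09 to 0.33 in LS. Of 16 SS tumors 1 exceeded the mean of LS. The difference was -0.13 ± 0.05 (SE, unadjusted p = 0.02, adjusted p = 0.48 by limma), with -0.18 among Cy5 and -0.08 among Cy3 tumors. The 2 probes of SUPT6H gave -0.20 and -0.06. SUPT16H, a subunit of the FACT histone chaperone, had tumor 3 at 1.12 in SS with the next tumor at 0.24, and its difference was 0.14, or 0.07 without tumor 3. SUPT3H, a SAGA subunit, differed by 0.23.

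With the dye orientation as a block, 6 members were higher (background 8.67%) and 4 lower (background 4.84%) in SS at an unadjusted p under 0.05, and 0 passed the adjusted threshold, against 0.572% of all genes. The members added to those above were SUPT3H, NCOA6 and ARID1B (higher) and ASH1L (lower).

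Probes of a gene did not always point the same way. Of the 18 members with several probes, 8 had probe differences of opposite sign. The widest gaps of these were KAT6B at -0.40 and 0.21, CHD4 from -0.04 to 0.36, KDM5B at -0.08 and 0.22, and KAT8 from -0.15 to 0.09. SUPT16H, with 1 sign, still spanned 0.01 to 0.38, with 2 of its 3 probes at 0.01 and 0.03.

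The 2 dye orientations formed a technical batch that holds both survival groups. Arrays of 1 orientation correlated positively with each other (lowest r 0.0237 for Cy5 and 0.00256 for Cy3), while the mean profiles of the orientations correlated at -0.658 over all probes. Of the members 41 (62.1%, against 59.1% of all genes) differed between the orientations at an adjusted p under 0.10 by limma, 20 higher and 21 lower in Cy5 tumors.

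The 3 largest of these orientation differences in size, those of HDAC2, KAT2B and KAT6B, exceeded every survival difference of a member. HDAC2, a deacetylase of the NuRD and SIN3 complexes, averaged 1.22 in Cy5 tumors and -1.59 in Cy3 tumors, a difference of 2.81 ± 0.54 (SE). SUPT3H followed at 0.78 and KDM4B at 0.58. In the other direction stood KAT2B at -1.15, KAT6B at -0.97 and ARID1A at -0.66. KAT6B lay below the pool in 16 of 16 Cy5 tumors and above it in 16 of 16 Cy3 tumors, and KDM4B the reverse.

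**Figure D3:**
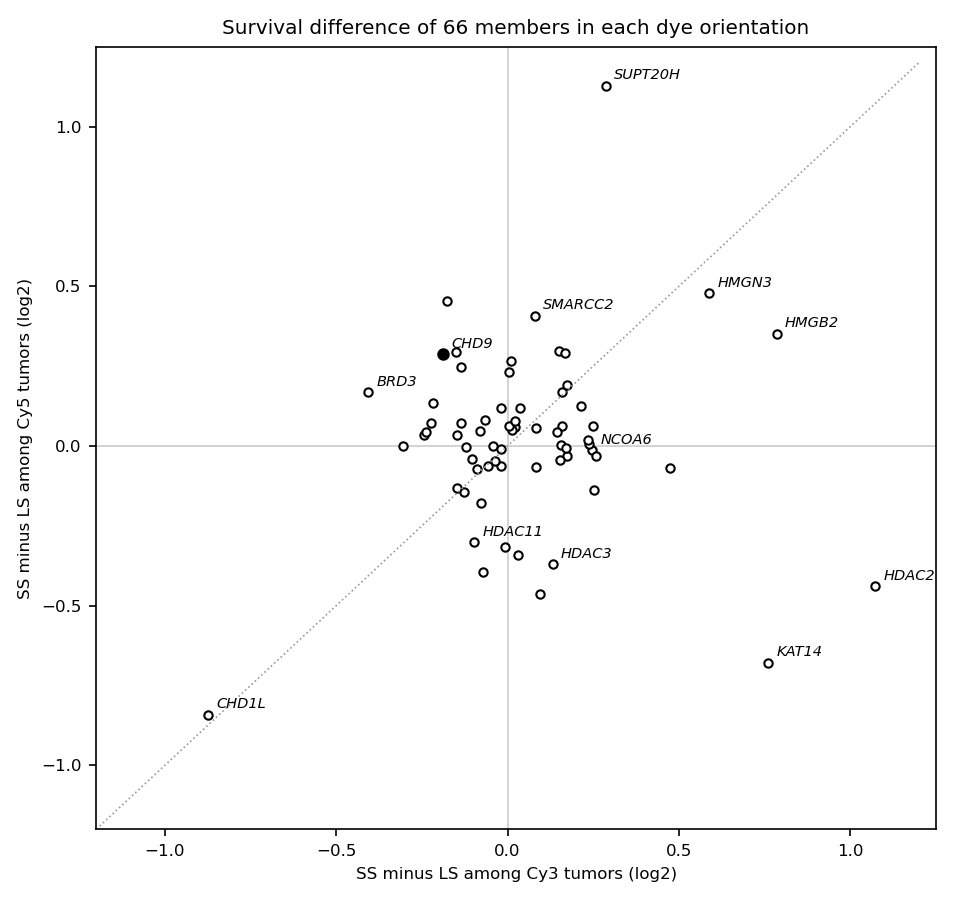
SS minus LS difference of each of the 66 members on the log2 scale among Cy5 tumors (vertical axis) and among Cy3 tumors (horizontal axis), 8 SS and 8 LS tumors each; the dotted line marks equal differences and the filled point is CHD9. HMGB2 and HMGN3 lie in the upper right, CHD1L in the lower left, and HDAC2 and KAT14 have opposite signs in the 2 orientations.

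The survival difference had the same sign in both orientations for 37 of 66 members (background 49.8% of all genes). Within Cy5 tumors 0 members were higher (background 1.87%) and 1, HDAC3, lower (background 0.248%) at an adjusted p under 0.10. Within Cy3 tumors 2, HMGB2 and NCOA6, were higher (background 1.45%) and 0 lower (background 0.648%). No member passed in both.

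The inequality itself passed for 1 member, CHD9, against a background of 3.09% of all genes. CHD9, a chromodomain helicase named also as a coactivator of nuclear receptors, averaged 0.12 in SS and -0.17 in LS among Cy5 tumors, and -0.03 in SS and 0.16 in LS among Cy3 tumors. Its difference was therefore 0.29 with Cy5 and -0.19 with Cy3, a gap of 0.48 ± 0.15 (SE; adjusted p = 0.092 by limma). When single tumors were left out, the gap passed in 10 of 32 fits, with adjusted p between 0.0477 and 0.143. The gap of CHD9 passed with scaled arrays (adjusted p = 0.0829 by limma) and at the probe level (0.0404). It did not pass with array weights or with sex, grade and chemotherapy as covariates. BRD3 passed in each of these alternatives, and NCOA6 with scaled arrays, with array weights and at the probe level. The next smallest interaction p belonged to HDAC3, BRD3, NCOA6 and CHD2, with adjusted p from 0.115 to 0.188.

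Members varied over tumors to unequal degrees. SETD2, SUPT6H and BRD2 had the smallest SD over the 32 tumors, 0.13, 0.14 and 0.15, but these are averages of 3, 2 and 2 probes, which lowers the SD. SETDB1 had the smallest of the members with 1 probe, 0.15. HDAC2, SUPT20H and KAT14 had the largest, 2.11, 1.49 and 1.28. The median SD within dye and survival group was 0.25 over the members and 0.27 over all genes.

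The wide members differed in kind. HDAC2 ran from -2.08 through -0.35 to 4.52 in SS and from -4.37 through -0.59 to 5.42 in LS, and 13 of 16 Cy5 tumors and 2 of 16 Cy3 tumors lay above the pool. Within dye and survival group its SD was still 1.57, the largest of the members, against 2.11 over all tumors. SUPT20H, a SAGA subunit, ran from -3.53 through -2.72 to 4.67 in SS and from -3.69 through -2.96 to -0.76 in LS. It was below the pool in 31 of 32 tumors and far above it in tumor 2.

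On the linear scale that 1 tumor held 82.7% of the summed SUPT20H ratio. The mean linear ratio over the tumors was 0.960 with tumor 2 and 0.172 without it. For tumors that make up the pool in equal parts such a mean would be near 1. It was 3.19 for HDAC2 and 2.03 for KAT14, against a median of 1.03 over the members. Whether the value of tumor 2 reflects its RNA was not tested. The SS minus LS difference of SUPT20H was 0.71 with tumor 2 and 0.25 without it.

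KAT14 was narrow in all but 2 SS tumors, with tumor 5 at -4.75 (next lowest -0.52) and tumor 13 at 5.07 (next highest 0.58). They carry opposite dyes. Without tumor 13 the KAT14 difference was -0.29, and without tumor 5 it was 0.36, against 0.04 with both.

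Single far tumors of this kind, chosen after their values were seen, also marked SETD9, a SET domain protein, with tumor 11 at 1.76 (next 0.33). Tumor 2 held the lowest or the highest value of 13 members, tumor 3 of 11, and tumors 1 and 4 of 10 each. All 4 are SS tumors labeled with Cy5. Without tumors 2 and 3 together the counts at an unadjusted p under 0.05 were again 3 higher and 3 lower.

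**Figure D4:**
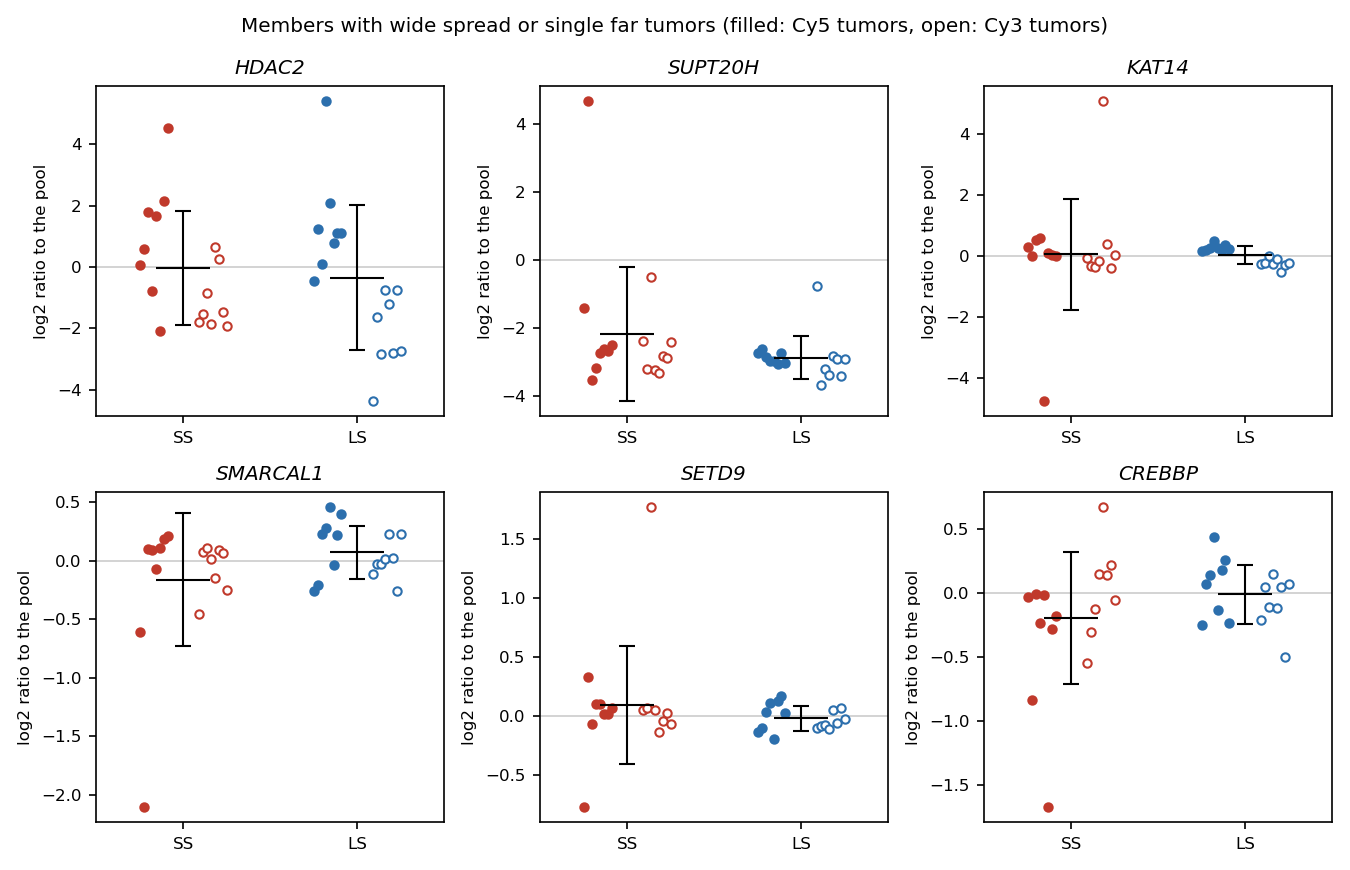
Log2 ratio to the pool of each tumor for 6 members with a wide spread or single far tumors, SS in red and LS in blue, filled points for Cy5 tumors and open points for Cy3 tumors, with the mean and SD of each group (n = 16). HDAC2 lies higher in Cy5 than in Cy3 tumors with a wide spread in both, SUPT20H lies below the pool except in tumor 2 at 4.67, and KAT14 has tumors at -4.75 and 5.07.

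Members did not vary together as a group. After centering within dye and survival group the median correlation of the 2145 member pairs was 0.0065, against 0.0039 over all gene pairs. The 5th to 95th percentiles were -0.38 to 0.43 for member pairs and -0.37 to 0.40 for all gene pairs. The pairs and genes given next were chosen after their values were seen. SMARCA5, an ISWI ATPase, and KDM5B correlated at r = 0.77. CHD6 correlated with CHD2 and with the demethylase KDM2A at 0.75 each. CHD2 correlated with KDM1A at -0.67, and SMARCA5 with CHD3 at -0.64.

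The genes CHD6, CHD2, KDM2A and CHD3, which correlated positively with each other, were all higher in Cy5 tumors, by 0.41 to 0.51. SMARCA5, KDM5B, CHD8 and KDM1A, whose pairs correlated at 0.28 (CHD8 with KDM1A) to 0.77, had orientation differences of -0.65 to -0.31. Over the 41 members with an orientation difference, pairs of the same sign had a median r of 0.07 and pairs of opposite sign of -0.04, against 0.04 and -0.04 over all such genes. The part of the dye in the co-variation of these genes was not tested.

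Other strong pairs were weaker without the far tumors. SMARCAL1 and SUPT20H correlated at -0.80 (rho = -0.56), and at -0.39 without the 2 tumors farthest from the median of either gene. SMARCC2 and SUPT16H correlated at 0.74, and at 0.31 or 0.12 without the 2 tumors farthest in SMARCC2 or in SUPT16H (rho = 0.35).

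**Figure D5:**
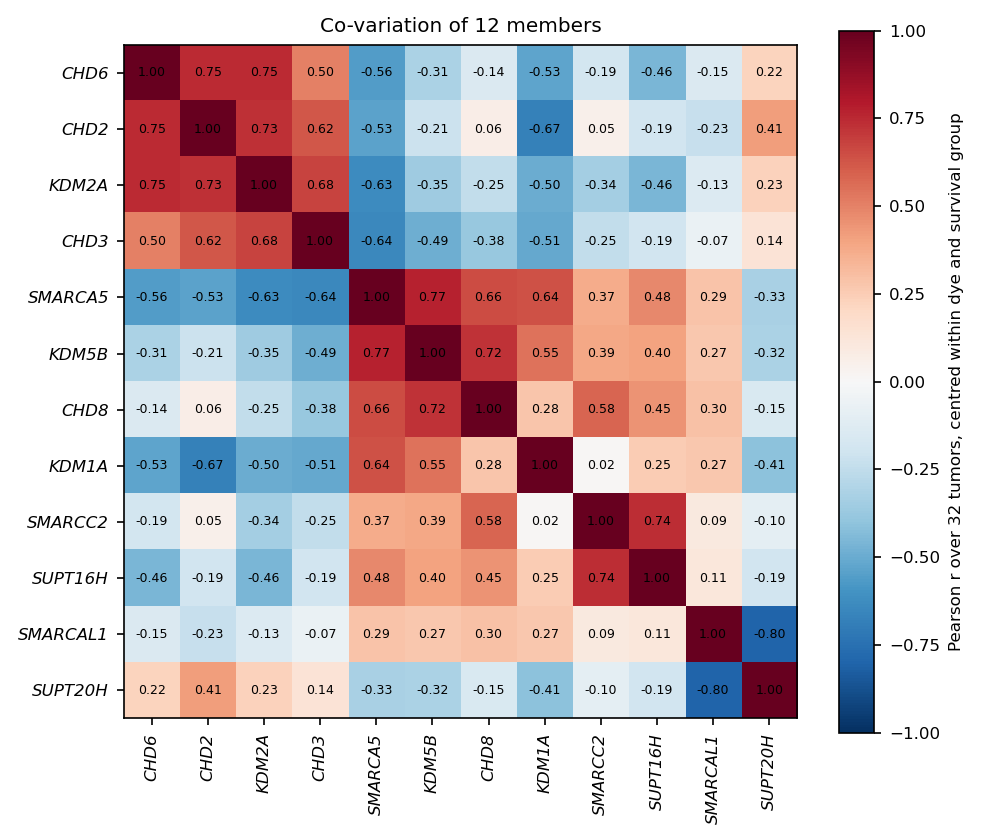
Pearson correlation over 32 tumors of 12 members that occur in the strongest positive and negative pairs, after centering each gene within dye and survival group; red is positive and blue negative. CHD6, CHD2, KDM2A and CHD3 form a positive block that runs against SMARCA5, KDM5B and KDM1A, and SMARCAL1 with SUPT20H is the lowest pair at -0.80.

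Chromatin genes outside these families, from 8 lists of polycomb, DNA methylation, corepressor, remodeling, histone methylation, histone acetylation, chaperone and heterochromatin genes, were read from the same fit. Of 94 measured, 62 (66%, against 56.6% of all genes) had the higher mean in SS. At an unadjusted p under 0.05, 8 were higher (8.51%, against 5.72%) and 1 lower (1.06%, against 2.73%), and 0 passed the adjusted threshold. The 1 lower gene was PHC1, a subunit of polycomb repressive complex 1, which averaged -0.09 ± 0.20 in SS and 0.16 ± 0.14 in LS (SD, n = 16 each). Its difference of -0.25 had an adjusted p of 0.26 by limma, and of 0.0954 with the dye as a block, where it was the 1 call among these 94.

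Of the corepressor genes, SAP18, a subunit of SIN3 complexes, averaged 0.12 ± 0.44 in SS and -0.26 ± 0.22 in LS (SD, n = 16 each), a difference of 0.38. NCOR1, the platform for HDAC3, differed by 0.26 as the mean of 3 probes, and the study listed it among its transcripts higher in SS. CBX5, which binds methylated histone H3 in heterochromatin, differed by 0.27 and passed among Cy3 tumors (adjusted p = 0.0989 by limma). ATRX, a remodeler of telomeres and heterochromatin, differed by 0.29, BAZ1B, a partner of SMARCA5, by 0.23, RSF1, another such partner, by 0.23, the chaperone ANP32B by 0.18 and DNMT1, the maintenance DNA methyltransferase, by 0.17. NSD2, a histone methyltransferase chosen after its values were seen, was 0.48 higher in SS among Cy5 tumors and 0.02 higher among Cy3 tumors. That inequality passed (adjusted p = 0.0679 by limma). It was 1 of 8 genes among the 94 with such an inequality (8.51%, against 3.09% of all genes). The smallest adjusted p of these was that of TADA2A (0.015 by limma), also named after its values were seen.

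Markers of other cells were read from the same fit, and none passed the adjusted threshold. Of all genes 56.6% had the higher mean in SS. Of 13 measured skeletal muscle markers, 12 had the lower mean in SS, with a median difference of -0.25; their mean ratio ran from -0.70 to 1.24 in SS and from -0.80 to 1.72 in LS, and DES, the muscle intermediate filament, differed by -0.61 (unadjusted p = 0.0243). All 10 measured osteoclast and macrophage markers, of 16 listed, had the higher mean in SS, with a median difference of 0.19. None of them had an unadjusted p under 0.05. Their mean ratio ran from -1.08 to 1.28 in SS and from -0.94 to 0.78 in LS. The 2 measured chondrocyte markers (median difference -0.31) and 4 of 5 endothelium markers had the lower mean in SS, also none at an unadjusted p under 0.05. The chondrocyte median was 0.24 among Cy5 tumors and -0.87 among Cy3 tumors. Lower in SS were also 3 of 4 osteoblast and 2 of 3 lymphocyte markers, while the 1 erythroid marker was higher. The part of such cells in the member differences was not tested.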

How the data were processed

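The deposited values were log2 ratios of tumor over pool for 22176 probes in 32 tumors, of which 7694 probes carried 1 gene symbol in the platform annotation. Per the study's methods, the authors flagged defective spots, applied a Lowess correction per print tip, took logarithms and switched the ratios of dye-swapped arrays. The base of the logarithm is not given in the sources used here and was taken as 2, and the direction of the Cy3 arrays rests on that switching. Array medians lay between -0.03 and 0.02 and array SDs between 0.474 and 0.762. Spot depth is unknown, and the number of arrays limits the precision. The 5 missing values lay on no member probe. Of 93 member probes, 92 matched a current gene record by identifier and 0 had another symbol there.

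Probes of a symbol were averaged, and 5246 genes were tested for SS minus LS without covariates by limma's moderated two-sided test (version 3.58.1, R 4.3.3) with Benjamini-Hochberg adjustment at 0.10, the false discovery rate of the study, whose own test, Significance Analysis of Microarrays, was not run here. An unadjusted p under 0.05 is used as a description only. The dye was tested as a block, within each orientation and by interaction with survival. The fit was tested on simulated data. Alternatives were these, a fit per probe, scaled arrays, array weights, and sex, grade and chemotherapy as covariates. Each tumor was also left out and, added after seeing the data, tumors 2 and 3 together. In the fit per probe, the probe with the smallest p stood for its gene.

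The members and lists were chosen with earlier results of these data known. Named members are those passing any of these adjusted tests over all tumors, the 8 higher and 8 lower in SS with the smallest p, up to 3 of each role with the smallest p, the 3 with the largest and smallest SD, the 5 with the smallest interaction p, the 3 with the largest orientation difference each way, and up to 4 whose probes had opposite signs with the widest gap; up to 3 genes of each other list with the smallest p are named, and others only where the text says that they were chosen afterwards or to complete a family.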

Additional observations from a re-analysis of the deposited data

Results flagged for a closer look

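CHD9 was flagged because its SS minus LS difference was unequal in the dye orientations. The difference was 0.29 among Cy5 tumors and -0.19 among Cy3 tumors, a gap of 0.476 with an adjusted p of 0.092 (limma interaction term). Calls of this kind made up 1.52% of the members, against 3.09% of all genes. The gap of CHD9 passed the threshold in 10 of 32 fits that each left out 1 tumor. It also passed with scaled arrays and at the probe level, but not with array weights or with covariates. The groups of 16 tumors are too large for the test for single far samples used in small groups, so no tumor was tested as an outlier.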

How the results depend on the processing

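No paired analysis was possible because every tumor came from a different dog and the groups share no tumor number. Over all genes the number at an adjusted p under 0.10 was 0 in the main setting, 30 with the dye as a block, 111 with Cy5 tumors only, 110 with Cy3 tumors only and 10 with array weights, and ran from 0 to 9 when single tumors were left out. Among the members it was 0, and 1 with Cy5 tumors only and 2 with Cy3 tumors only. Members higher in SS at an unadjusted p under 0.05 numbered 3, against 6 with the block, 6 with Cy3 tumors only and 6 with array weights. They ran from 1 (without tumor 25) to 5 (without tumor 30) when single tumors were left out. Members lower in SS numbered 3, against 6 with Cy5 tumors only and 7 with Cy3 tumors only. Members with an interaction of survival and dye numbered 1, against 7 at the probe level, 4 with scaled arrays and 4 with array weights, and from 0 to 2 when single tumors were left out, with 0 in 15 of 32 fits. With sex, grade and chemotherapy as covariates it was again 1, but BRD3 in place of CHD9. At the probe level the probe with the smallest p stood for its gene, so that the 7 is not a like count. Shares of all genes are given above for the main setting, the block and the adjusted counts within an orientation. The other member counts lack that share and are no result about the members.

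Of 408 single-gene alternatives, over 51 named genes, 24 turned the sign. With Cy5 tumors only the differences were -0.013 for NCOA6, 0.044 for KAT6B, -0.031 for BRD2, 0.17 for BRD3, -0.069 for HMGN1, 0.034 for HDAC1, -0.44 for HDAC2, -0.68 for KAT14 and 0.13 for CHD2. With Cy3 tumors only they were -0.19 for CHD9, 0.030 for CHD7, 0.10 for CREBBP, 0.13 for HDAC3, -0.13 for NCOA4 and -0.15 for KAT2B. Array weights gave -0.025 for CHD9, 0.0059 for KAT8, -0.054 for NCOA4, -0.16 for KAT14 and -0.018 for KAT2B. Scaled arrays gave -0.021 for NCOA4 and -0.11 for KAT14, covariates gave -0.14 for KAT14, and leaving out tumors 2 and 3 gave 0.022 for NCOA1. With single tumors left out, NCOA4 ran from -0.0076 to 0.11, KAT14 from -0.29 to 0.36, KAT2B from -0.0033 to 0.14 and ARID1A from -0.016 to 0.081. Leaving out 1 tumor moved 23 of the 42 named members, none of them called, by over 1.5 times or turned their sign. The cause of these changes was not tested. HMGB2, HDAC11, SUPT6H, CHD1L, HMGN3 and SMARCC2 kept their sign in every alternative run. They were picked by a small p in these same data, which favors a kept sign. The block could not turn a sign, since both groups are split equally between the dyes. Smaller groups of 8 and the dye limit the fits within an orientation.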
